A study of Mus musculus with 3 samples.

Results

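The genes followed here, 42 in number, belong to the lysosome and to autophagy, and their levels were read across the wells of a DRUG-seq2 experiment, in which each well of a plate is barcoded at reverse transcription and the plate is sequenced as 1 library. These members were chosen by name, with earlier results of these data known, and 42 of 42 were among the 20471 genes of the deposited count table. They comprised lysosomal membrane and sorting proteins, proteases, other hydrolases, subunits of the proton pump, regulators of lysosomal genes and autophagy proteins. Wild-type fibroblasts from mouse embryos (MEF) grew for 4 days in CFAE+8 medium, with 1 compound of a kinase inhibitor library in each well. The 3 deposited samples were 3 whole plates, and 1 of them also held wells without a compound in 8 media named MEF (4 wells), basal (3), bCFAE (3), bC6FAE[2] (3), bC6FAE[10] (4), bCLFAE (4), bCSFAE (4) and bC8FAE (5). What the letters and numbers stand for is not stated in the labels, and bC8FAE was taken, from its name alone, to be the compound-free form of the screening medium. Values are CPM, the count of a gene scaled to 1000000 counts of its well. The labels used here give no doses, vehicle wells or origin of each well, so p-values measure the spread between wells, which may come from 1 culture.

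Lysosomes are the acidic organelles in which cells degrade proteins, lipids and sugars. A membrane pump, the V-ATPase, acidifies them, proteases of the cathepsin family and other hydrolases do the degrading, and membrane proteins such as Lamp1 and Lamp2 line and protect them. In autophagy a double membrane forms around cytoplasm, decorated by small ubiquitin-like proteins of the LC3 and GABARAP families, and is then delivered to the lysosome. The transcription factors Tfeb and Tfe3 bind the motif CACGTG in the promoters of many of these genes. The kinase mTOR, in a complex at the lysosome's surface, holds these factors in the cytoplasm and restrains the autophagy kinase Ulk1 while nutrients are plentiful.

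Promoter sequences of 33 of the 42 members were in the RefSeq table (GRCm38.p6), each spanning 250 bases before to 50 bases after a start site listed there. CACGTG, which reads the same on both strands, was in the window of 10 members (Lamp1, Ctsa, Ctsd, Ctsl, Gaa, Glb1, Mcoln1, Atp6v0d1, Atp6v0e and Atp6v1a), 30.3% of those matched. It was in 8.09% of the 27025 genes of the table and in 12.8% of the 4201 other genes that were expressed here and had an entry. The longer palindrome TCACGTGA, which contains it, was in 6 members (18.2%), in 1.12% of all genes and in 2.71% of the expressed ones. Another motif, GTCACGTG, searched on both strands and overlapping both others, was in 6 members, 2.55% of all genes and 5.43% of the expressed ones. The stretches below show where the motif, in capitals, stands in members described in the results. Those of Ctsa, Atp6v1a, Ctsl and the latter of Mcoln1 lie inside the gene as annotated by GENCODE, past its outermost start. Those of Ctsa, Mcoln1 and Ctsl meet an annotated exon. A match to these letters is a description of the sequence and not a measured binding site.
Lamp1 (chr8:13159080-13159160, + strand, 4 copies): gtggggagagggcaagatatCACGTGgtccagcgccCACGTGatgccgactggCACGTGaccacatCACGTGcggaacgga
Gaa (chr11:119267803-119267848, + strand): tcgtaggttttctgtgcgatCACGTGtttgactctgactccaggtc
Atp6v1a (chr16:44139365-44139410, - strand): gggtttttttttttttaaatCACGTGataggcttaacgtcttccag
Ctsa (chr2:164833751-164833772, + strand): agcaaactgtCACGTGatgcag
Mcoln1 (chr8:3500438-3500463, + strand): tcgcgcttgtCACGTGttcagttcag
Mcoln1 (chr8:3500464-3500489, + strand): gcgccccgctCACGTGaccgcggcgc
Ctsl (chr13:64370741-64370766, - strand): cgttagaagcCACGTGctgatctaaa

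The 30 medium wells held 119295 to 726228 counts with a median of 448881, and wells MEF 3 (138747) and bC8FAE 4 (119295) stood below the others. The 217 compound wells tested, of 221 mapped, had plate medians of 318166, 608986 and 433274 counts, and 4 wells under 10% of their plate's median were left out (FRAX486, CDK_IN_2, FLLL32 and LY2857785). All 15 fibroblast markers checked were expressed at testable levels in the media. The exons of 14 of the 42 members overlap those of another gene in the annotation, and whether strand was used in counting is not stated in the labels. Among the members named often, this holds for Ctsl (with Gm47123 and Gm49230), Lamp1 (Grtp1), Ctsb (Fdft1), Ctsd (Gm49369), Gabarapl1 (1700101I11Rik) and Atp6v1h (Rgs20). Calls rest on edgeR's quasi-likelihood test with an adjusted p under 0.05 (Benjamini-Hochberg, over all genes tested), the source of each adjusted p given here.

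Together the 42 genes took 1.45% ± 0.0973 (SD, n = 4) of the counts in MEF medium and 1.22% ± 0.0323 (n = 3) in basal medium. The share was 1.52% ± 0.0165 (n = 3) in bCFAE, 1.46% ± 0.0460 (n = 3) in bC6FAE[2], 1.44% ± 0.0580 (n = 4) in bC6FAE[10] and 1.495% ± 0.0506 (n = 4) in bCLFAE. It was 1.70% ± 0.0227 (n = 4) in bCSFAE and 1.53% ± 0.0659 (n = 5) in bC8FAE. The basal wells were thus the lowest and the bCSFAE wells the highest, and neither overlapped any other medium. This share is a sum in which abundant members weigh most, and it does not describe the members one by one. From basal to bCFAE 18 of 38 tested members had a positive log2 fold change, with a median of -0.07. From bCFAE to bCSFAE 28 of 38 did, with a median of 0.22. In these bulk wells, fewer cells of a type and less RNA per cell cannot be told apart.

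Of the 42 members, 38 had enough counts to be tested in the media, and Npc1, Rragd, Tfeb and Ulk1 did not. A difference among the 8 media was called for 27 of the 38, where 48.5% of all 6985 genes tested were called. The smallest adjusted p values belonged to Ctsl (1.78e-17), Map1lc3a (1.19e-13), Atp6ap1 (9.98e-11) and Gabarapl1 (8.99e-10). No difference was called for Atp6v0d1, Hexa, Glb1, Psap, Lamp1, Cd63, Atp6v1a, Gabarapl2, Becn1, Lipa and Scarb2. Among these, the means over the 8 media ran from 1439 to 1760 CPM for Cd63, a membrane protein of late endosomes and exosomes, and from 53.2 to 70.8 CPM for Becn1, a subunit of the lipid kinase complex that starts autophagosomes.

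**Figure D1:**
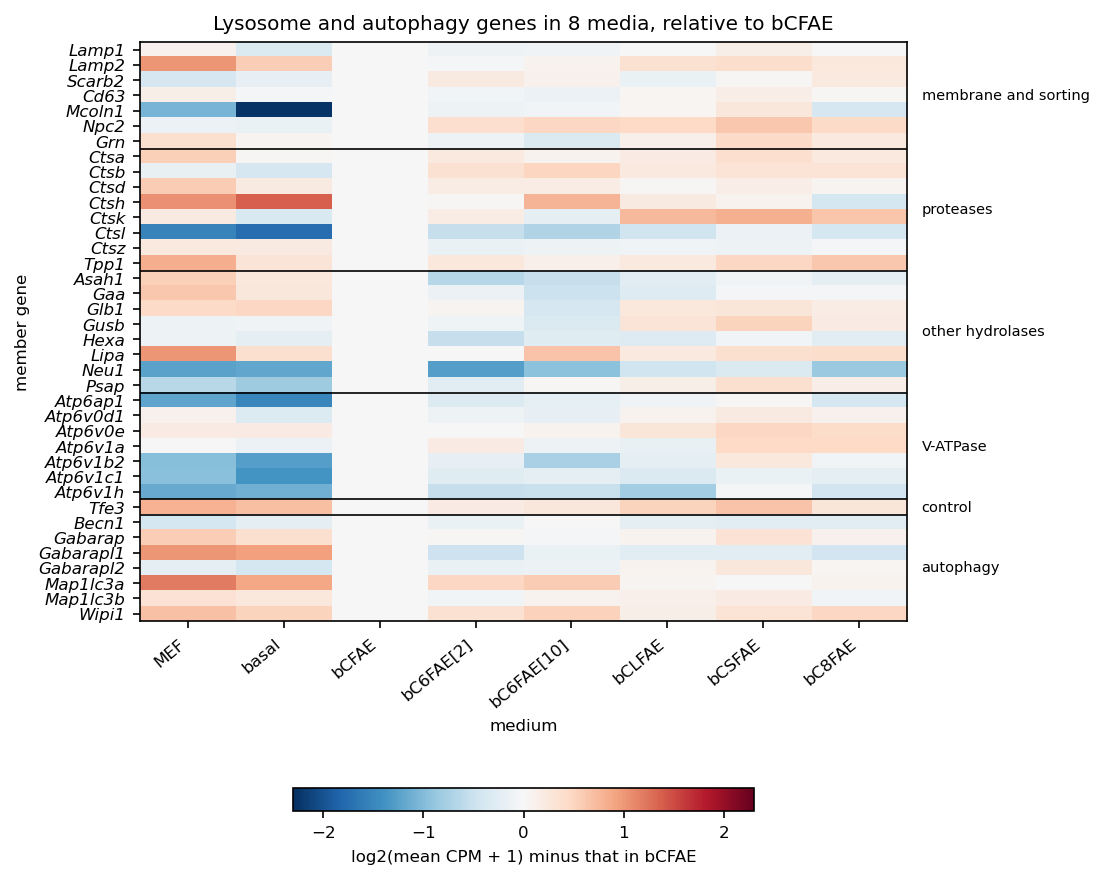
Each row is 1 of the 38 tested lysosome and autophagy genes, grouped by role, and each column is a medium; the colour is log2(mean CPM + 1) minus the same value in bCFAE (red higher, blue lower). MEF and basal wells stand apart from the other 6 media, with Ctsl, Mcoln1 and Atp6ap1 lower and Map1lc3a, Gabarapl1 and Lamp2 higher than in bCFAE.

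Between basal medium and bCFAE, members were called in both directions. Atp6ap1, Atp6v1c1 and Atp6v1b2 of the proton pump, the calcium channel Mcoln1 and the hydrolases Ctsl and Neu1 rose. Map1lc3a, Map1lc3b, Gabarap, Gabarapl1, Wipi1, Lamp2, Tfe3 and the hydrolases Ctsh, Gaa, Ctsd and Ctsz fell. In all, 6 of 38 members rose, where 16.3% of all genes rose, and 11 fell, where 18.2% of all genes fell. The members' median log2 fold change was -0.07 and that of all genes 0.00. With scaling to library totals in place of trimmed mean of M values (TMM), which raised the median of all genes by 0.134 on the log2 scale, 9 members were called higher and 6 lower.

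Ctsl encodes cathepsin L, a cysteine protease of the lysosome that fibroblasts also secrete. Its 3 basal wells held 1122, 1216 and 1179 CPM and its 3 bCFAE wells 4130, 4050 and 3662 CPM. Every bCFAE well lay far above every basal well, with a log2 fold change of 1.62 ± 0.14 (SE) and an adjusted p of 2.05e-14. Mcoln1 encodes the calcium channel of the lysosomal membrane, TRPML1, and carried 2 copies of CACGTG in the promoter window shown above. It stood at 8.46, 8.81 and 9.51 CPM in basal wells and at 40.6, 49.6 and 48.9 CPM in bCFAE wells. The fold was the largest of the members in this comparison, at 2.20 ± 0.39 on the log2 scale (adjusted p = 8.25e-06). Its size rests on very low counts of Mcoln1 in the basal wells, which held 354766, 340571 and 315416 counts in total.

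Of 7 subunits of the proton pump among the members, 3 rose. Atp6ap1, an accessory subunit, was at 78.9, 88.1 and 47.6 CPM in basal wells and at 232, 198 and 186 CPM in bCFAE wells (log2 fold change 1.38 ± 0.18, adjusted p = 9.71e-09). Atp6v1c1, a subunit of the stalk of the pump, was at 33.8, 17.6 and 47.6 CPM and then at 76.7, 103 and 81.4 CPM (1.28 ± 0.29, adjusted p = 0.000327). Atp6v1b2, a subunit of the catalytic ring, was at 16.9, 23.5 and 9.51 CPM and then at 40.6, 48.2 and 34.9 CPM (1.17 ± 0.34, adjusted p = 0.00496). The wells of the 2 media did not overlap for any of these 3 subunits, while Atp6v0d1, Atp6v0e, Atp6v1a and Atp6v1h were not called. Neu1, the lysosomal sialidase, rose by 1.02 ± 0.29 (adjusted p = 0.005), but its wells overlapped: basal wells held 42.3, 29.4 and 19.02 CPM and bCFAE wells 39.1, 81.2 and 90.7 CPM. Without the basal 3 well, neither Neu1 nor Atp6v1b2 was called.

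Of the 11 falls, 5 were of autophagy genes. Map1lc3a, which encodes LC3A, was at 437, 414 and 409 CPM in basal wells and at 232, 212 and 237 CPM in bCFAE wells, a fall by 1.03 on the log2 scale (SE 0.16, adjusted p = 4.99e-07). Gabarapl1, of the GABARAP branch of the same family, was at 110, 82.2 and 53.9 CPM and then at 40.6, 44.1 and 41.9 CPM (fell by 1.11 ± 0.25, adjusted p = 0.000251). The 3 bCFAE wells were below all basal wells for both genes. Gabarap itself was at 755, 634 and 549 CPM in basal wells and at 469, 490 and 542 CPM in bCFAE wells (fell by 0.51 ± 0.14, adjusted p = 0.00274). Wipi1, which reads a membrane lipid at the site where autophagosomes form, was at 67.7, 64.6 and 47.6 CPM and then at 40.6, 39.9 and 44.2 CPM (fell by 0.68 ± 0.23, adjusted p = 0.0213). The call of Gabarap was lost without the basal 1 well, and that of Wipi1 without any of basal 1, basal 2, bCFAE 1 or bCFAE 2.

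Among lysosomal proteins, Lamp2 fell from 195, 217 and 257 CPM to 134, 171 and 144 CPM, by 0.70 on the log2 scale (SE 0.16, adjusted p = 0.000464). Tfe3, the transcription factor, fell from 73.3, 85.2 and 95.1 CPM to 42.1, 64.7 and 48.9 CPM, by 0.81 (SE 0.22, adjusted p = 0.00291). Neither gene's wells overlapped between the media. Ctsh, a protease that trims protein ends, had the largest fall of the members, by 1.43 ± 0.46 (adjusted p = 0.0115) from 19.7, 29.4 and 41.2 CPM to 10.5, 17.9 and 4.65 CPM, at low counts, and its call was lost without the basal 3 well. Gaa, the glycogen-degrading enzyme, fell by 0.40 ± 0.15 (adjusted p = 0.0334) with overlapping wells, at 257, 200 and 254 CPM in basal and 156, 220 and 216 CPM in bCFAE. The other 3 falls, of Map1lc3b, Ctsz and Ctsd, were between 0.34 and 0.38 on the log2 scale. Of the 17 calls, 8 held without any single well: Mcoln1, Ctsl, Atp6ap1, Atp6v1c1, Lamp2, Tfe3, Map1lc3a and Gabarapl1.

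**Figure D2:**
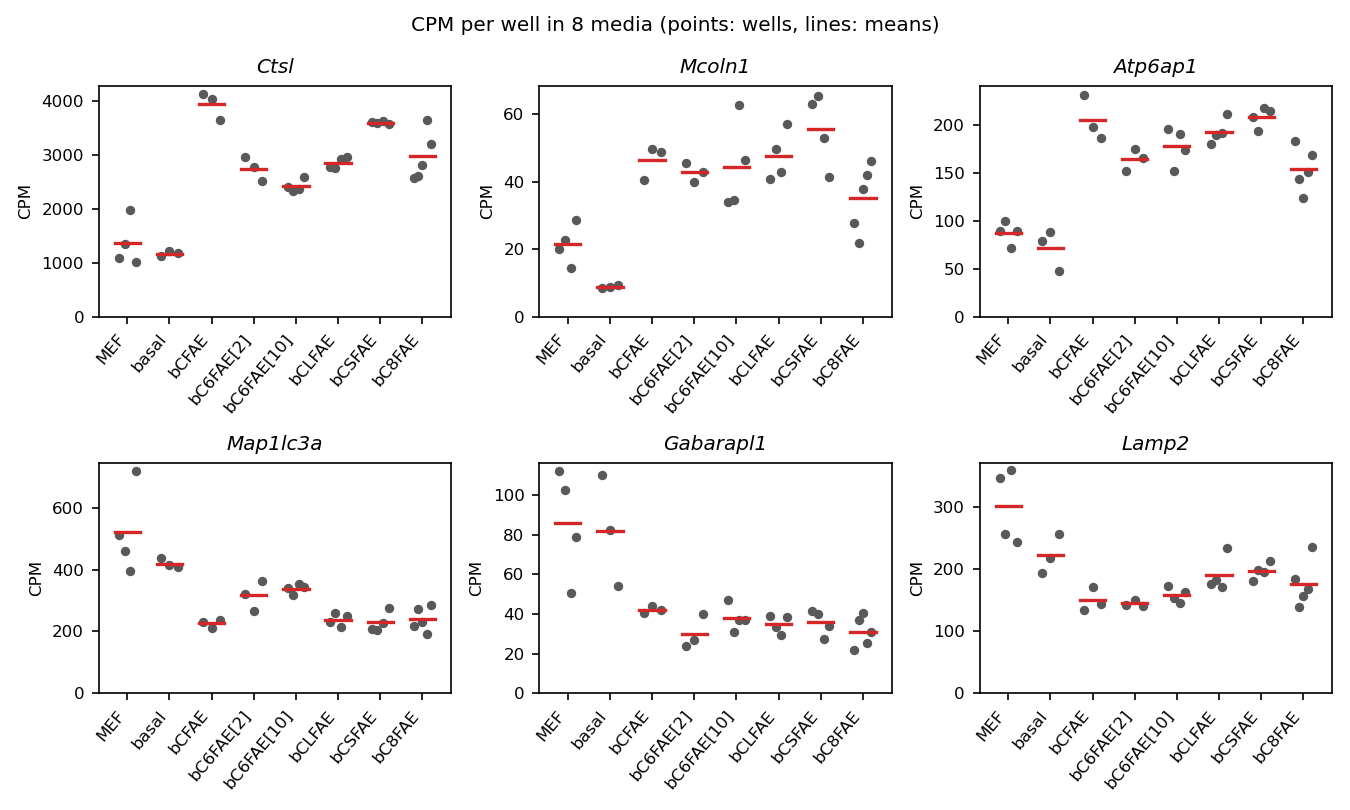
Each point is the CPM of 1 well and each red line the mean of a medium, for 6 of the 42 genes in 8 media. Ctsl, Mcoln1 and Atp6ap1 are lower in MEF and basal wells than in bCFAE wells, and Map1lc3a, Gabarapl1 and Lamp2 mostly higher.

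Other genes of the pathway showed both directions as well. Of 7 further V-ATPase subunits tested, 3 rose from basal to bCFAE and 0 fell, led by Atp6ap2 (1.00 ± 0.32 on the log2 scale) and Atp6v1g1 (0.88 ± 0.21). Of 30 other lysosomal enzymes and membrane proteins, 2 rose and 7 fell, with Laptm4b rising by 0.99 ± 0.18 and Gm2a, the activator of ganglioside breakdown, falling by 1.42 ± 0.35. Of 26 other autophagy genes, 3 rose and 5 fell. The autophagy receptor Sqstm1 (p62) rose from 181 ± 32.0 to 390 ± 20.4 CPM (SD, n = 3 each; 0.98 ± 0.14), and the mitophagy receptor Bnip3 fell from 84.5 ± 17.9 to 13.4 ± 1.76 CPM, by 2.73 on the log2 scale. Of 15 genes of mTORC1 and TFEB control, 3 rose, among them Rptor, and 2 fell, Lamtor4 and Lamtor2. Of 17 genes of sorting to the lysosome, only Vps35 was called, and it was higher.

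Markers of cell types moved between the same media. Of 15 fibroblast markers, 3 rose and 12 fell from basal to bCFAE, led by falls of Dcn and Lum. Of 14 macrophage markers 3 could be tested, and Lyz2 and Tyrobp fell, by 2.75 ± 0.34 and 2.20 ± 0.45 on the log2 scale. The summed level of the 13 macrophage markers in the table was 164 to 349 CPM in basal wells and 55.8 to 62.0 CPM in bCFAE wells, with Ptprc, Cd14 and Itgam at 0 in basal wells and Ptprc, Aif1 and Mpeg1 at 0 in bCFAE wells. Fabp4, an adipocyte marker, was at 65.3 ± 15.0 CPM in basal wells and 0.501 ± 0.868 CPM in bCFAE wells (SD, n = 3 each), and the epithelial markers Krt18 and Krt19 rose, by 1.63 ± 0.48 and 0.97 ± 0.39. The part of these cell types in the falls of Ctsh, Lamp2 and the other members was not tested.

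None of the 38 members was called between basal and MEF wells by edgeR, where 0.687% of all genes were called in either direction. An unadjusted p under 0.05 was found for 7 members (18.4%) and for 9.51% of all genes. The median log2 fold change was -0.16 over the members, 11 of 38 being positive, and 0.00 over all genes. DESeq2 called 2 members, both lower in basal wells.

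The screening medium bC8FAE was then compared with MEF medium. In it 5 members rose, where 15.2% of all genes rose, and 12 fell, where 16.9% of all genes fell. The median log2 fold change was -0.17 over the members and 0.01 over all genes. Ctsl was at 1089, 1344, 1989 and 1022 CPM in MEF wells and at 2581, 2617, 2813, 3655 and 3213 CPM in bC8FAE wells, a log2 fold change of 1.08 ± 0.12 (adjusted p = 4.51e-11). Atp6ap1 was at 89.5, 99.5, 72.1 and 89.7 CPM and then at 184, 143, 124, 151 and 169 CPM (0.72 ± 0.16, adjusted p = 0.000343). The bC8FAE wells lay above all MEF wells for both genes. Atp6v1b2, at 31.3, 14.2, 14.4 and 21.5 CPM and then at 45.5, 34.8, 38.0, 41.9 and 35.8 CPM, was called narrowly (0.75 ± 0.30, adjusted p = 0.0497).

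A pair of members rose here that had not been called between basal and bCFAE. Npc2, the small protein that hands cholesterol out of the lysosome, was at 870, 853, 1117 and 940 CPM in MEF wells and at 1465, 1381, 1440, 1333 and 1412 CPM in bC8FAE wells (0.53 ± 0.10, adjusted p = 3.9e-05). Ctsb, cathepsin B, was at 1248, 1384, 1247 and 1406 CPM and then at 1781, 1794, 1763, 1978 and 1914 CPM (0.40 ± 0.10, adjusted p = 0.00147). No bC8FAE well reached down to the MEF wells for either gene. Whether these rises differed from those between basal and bCFAE was not tested.

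Map1lc3a, Map1lc3b, Gabarap and Gabarapl1 were among the falls, and Gabarapl2 was not called. Map1lc3a was at 512, 461, 396 and 721 CPM in MEF wells and at 217, 272, 230, 193 and 287 CPM in bC8FAE wells, a fall by 1.17 on the log2 scale (SE 0.14, adjusted p = 2.47e-10). Gabarapl1 was at 112, 102, 50.5 and 78.9 CPM and then at 21.7, 36.9, 40.5, 25.2 and 30.7 CPM (fell by 1.61 ± 0.23, adjusted p = 9.05e-08). Both sets of wells were separate. Lamp2 fell by 0.81 ± 0.14 (adjusted p = 2.6e-06) from 347, 256, 360 and 244 CPM to 184, 139, 157, 168 and 235 CPM, also without overlap. Ctsh fell by 1.77 ± 0.48 (adjusted p = 0.00264) from 35.8, 31.3, 14.4 and 14.4 CPM to 3.95, 13.0, 7.59, 8.38 and 7.68 CPM.

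Other hydrolases were also among the falls. Ctsd, the aspartic protease cathepsin D, was at 2248, 2308, 2105 and 2901 CPM in MEF wells and at 1484 to 1773 CPM (median 1724) in bC8FAE wells (fell by 0.57 ± 0.11, adjusted p = 2.86e-05). Gaa was at 253, 298, 353 and 316 CPM and then at 164, 230, 164, 201 and 194 CPM (fell by 0.70 ± 0.13, adjusted p = 2.03e-05). The bC8FAE wells were lower throughout for both enzymes. Asah1, acid ceramidase, fell by 0.80 ± 0.18 (adjusted p = 0.00033) with overlap, at 114, 128, 180 and 93.3 CPM and then at 67.2, 99.9, 50.6, 101 and 61.4 CPM. Tfe3 fell by 0.61 ± 0.20 (adjusted p = 0.0136), at 91.7, 76.7, 108 and 86.1 CPM and then at 59.3, 71.7, 58.2, 83.8 and 40.9 CPM, also with overlap. The remaining falls, of Gabarap, Map1lc3b, Ctsa and Ctsz, were between 0.33 and 0.54. Of the 17 calls, 14 held without any single well, and Atp6v1b2, Tfe3 and Ctsz did not.

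Of the wider pathway lists between MEF and bC8FAE, 3 of 7 other pump subunits rose, led by Atp6ap2 (1.08 ± 0.30) and Atp6v0b (0.62 ± 0.12). Of 30 other lysosomal genes 4 rose, among them Laptm4b (1.22 ± 0.16), and 4 fell, among them Smpd1, acid sphingomyelinase, from 163 ± 21.7 (SD, n = 4) to 63.7 ± 15.2 CPM (n = 5). Of 26 other autophagy genes Optn rose and 3 fell, Bnip3 and Bnip3l the most. Of 15 mTORC1 and TFEB control genes, Rptor and Tsc2 rose and Lamtor2 fell, and of 17 sorting genes only Ap1b1 was called, as a rise. The macrophage markers summed to 215 to 411 CPM in MEF wells and 36.9 to 92.1 CPM in bC8FAE wells, with Ptprc and Itgam at 0 in both media. Lyz2 fell by 2.59 ± 0.28, and of 15 fibroblast markers 3 rose and 12 fell. The part of these cells in the members' falls was not tested.

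The 5 other media were compared with bCFAE, and these comparisons share the same 3 bCFAE wells. In bC6FAE[2], 3 members rose (5.03% of all genes) and 3 fell (3.55%). In bC6FAE[10], 4 rose (7.59% of all genes) and 4 fell (6.06%), or 3 and 6 with scaling to library totals. In bC8FAE, 3 rose (5.58%) and 2 fell (5.50%). In bCLFAE, 2 rose (3.21%) and 1 fell (3.29%). In bCSFAE, 6 rose (3.18%) and 0 fell (2.92%). The median log2 fold change of the members in bCSFAE was 0.22 and that of all genes 0.00.

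Npc2 was called higher in all 5 of these media. Against 973, 1027 and 1103 CPM in bCFAE, it held 1414, 1383 and 1265 CPM in bC6FAE[2] and 1473, 1415, 1373 and 1502 CPM in bC6FAE[10]. In bCLFAE it held 1374, 1330, 1401 and 1565 CPM and in bCSFAE 1510, 1633, 1534 and 1643 CPM. The lowest of these wells was above the highest bCFAE well. The log2 fold changes were 0.48 ± 0.12, 0.53 ± 0.11, 0.48 ± 0.11 and 0.61 ± 0.11, and 0.47 ± 0.11 for bC8FAE, with adjusted p between 9.75e-05 and 0.00505. Ctsl was called lower in all but bCSFAE. It held 2959, 2776 and 2514 CPM in bC6FAE[2], 2416, 2331, 2371 and 2596 CPM in bC6FAE[10], and 2784, 2756, 2932 and 2964 CPM in bCLFAE. All these wells lay below the bCFAE wells and above the basal wells, with log2 fold changes of -0.43 ± 0.14, -0.65 ± 0.13 and -0.44 ± 0.13, and of -0.41 ± 0.12 in bC8FAE.

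Ctsk, cathepsin K, a protease that cleaves collagen and elastin, was called higher in bC8FAE, bCLFAE and bCSFAE. It was at 58.7, 62.0 and 67.5 CPM in bCFAE, at 110, 79.9, 126 and 109 CPM in bCLFAE (0.77 ± 0.18, adjusted p = 0.00188) and at 124, 101, 104 and 118 CPM in bCSFAE (0.83 ± 0.17, adjusted p = 0.000481). In bC8FAE it was at 94.9, 78.2, 119, 117 and 81.9 CPM (0.65 ± 0.18, adjusted p = 0.0111). All wells of these 3 media were above all bCFAE wells. In both bC6FAE media Ctsk was not called, with means of 70.3 ± 8.58 (SD, n = 3) and 53.8 ± 5.62 CPM (n = 4).

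Both bC6FAE media shared rises of Map1lc3a and Ctsb. Map1lc3a was at 323, 266 and 362 CPM in bC6FAE[2] (0.57 ± 0.16, adjusted p = 0.017) and at 341, 319, 353 and 344 CPM in bC6FAE[10] (0.63 ± 0.15, adjusted p = 0.00143), above every bCFAE well. Ctsb was at 1439, 1526 and 1500 CPM in bCFAE, at 1886, 1988 and 1854 CPM in bC6FAE[2] (0.45 ± 0.12, adjusted p = 0.00977) and at 2238, 1931, 2032 and 2218 CPM in bC6FAE[10] (0.55 ± 0.11, adjusted p = 0.000229). Ctsb also rose in bC8FAE, by 0.32 ± 0.11 (adjusted p = 0.0461). Neu1 fell in bC6FAE[2], by 1.15 ± 0.28 (adjusted p = 0.00333), to 27.7, 31.1 and 27.6 CPM, and in bC6FAE[10], by 0.89 ± 0.24 (adjusted p = 0.00538), to 26.4, 36.5, 39.4 and 41.8 CPM. In bC8FAE it fell by 0.77 ± 0.23 (adjusted p = 0.0206), to 39.5, 32.6, 38.0, 33.5 and 48.6 CPM. The bCFAE 1 well, at 39.1 CPM, lay within the range of bC6FAE[10] and bC8FAE and above all bC6FAE[2] wells, and bCFAE 2 and 3 lay above all of these wells.

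The other calls of the bC6FAE media were Hexa in bC6FAE[2] (fell by 0.44 ± 0.15, to 135, 149 and 117 CPM) and Wipi1, Gaa and Atp6v1b2 in bC6FAE[10]. Wipi1 rose there by 0.60 ± 0.20, to 62.2, 55.7, 62.6 and 62.7 CPM. Gaa fell by 0.44 ± 0.14, to 130, 134, 149 and 149 CPM, and Atp6v1b2 fell by 0.75 ± 0.26, to 30.2, 17.3, 30.2 and 18.6 CPM. The bC6FAE[10] and bC6FAE[2] wells were compared directly, and edgeR and DESeq2 called no member, where edgeR called 0.415% of all genes and gave 4 members (10.5%) and 7.79% of all genes an unadjusted p under 0.05.

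In bCSFAE the 6 rises were of Ctsk, Npc2, Tfe3, Atp6v0e, Grn and Ctsa. Tfe3 was at 110, 86.8, 66.7 and 66.3 CPM against 42.1, 64.7 and 48.9 CPM in bCFAE (0.65 ± 0.19, adjusted p = 0.0226). Grn, progranulin, a secreted and lysosomal glycoprotein, was at 679, 643, 569 and 589 CPM against 450, 439 and 479 CPM (0.44 ± 0.11, adjusted p = 0.00556). Both genes had all bCSFAE wells above all bCFAE wells. Atp6v0e, a membrane subunit of the pump, was at 198, 283, 249 and 294 CPM against 181, 183 and 188 CPM (0.48 ± 0.14, adjusted p = 0.0213). Ctsa, the carboxypeptidase that also stabilises Neu1 and Glb1, was at 374, 336, 367 and 473 CPM against 280, 282 and 328 CPM (0.39 ± 0.12, adjusted p = 0.0471).

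The bCFAE wells weighed on these counts. Leaving out bCFAE 1, 2 or 3 gave 2, 1 or 3 calls in bC8FAE, against 5 with all wells, and leaving out bCFAE 1 or 2 gave 2 or 3 calls in bC6FAE[2] and in bCSFAE, where 6 were made with all wells. Leaving out any of the 3 bC6FAE[2] wells gave 3 calls. In bC6FAE[10], 4 calls were made without bCFAE 2, against 8 with all wells. The calls that held without any single well were Npc2 in bC8FAE, bC6FAE[10] and bCSFAE, Ctsk in bCLFAE and bCSFAE, Neu1 in bC6FAE[2], and Map1lc3a, Ctsb and Ctsl in bC6FAE[10]. Of these, Npc2 in bC8FAE lost its call when the 2 media were fitted without the others.

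The 4 members under the filter were counted in all wells. In compound wells Tfeb had plate medians of 2.5, 6 and 4 counts and at most 18, Ulk1 had 2, 4 and 6 and at most 15, and Npc1, the membrane partner of Npc2 in cholesterol export, had 4, 7 and 5 and at most 38. Rragd, a GTPase that brings mTORC1 to the lysosome and a known target of Tfeb, had medians of 1, 1 and 2 counts. Without the filter none of the 4 was called in any medium comparison by edgeR, the largest fold being that of Rragd from basal to bCFAE (2.54 on the log2 scale, adjusted p = 0.118). Changes of these genes were mostly not detectable at this depth.

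In the compound wells the 42 genes took a median of 1.55%, 1.57% and 1.53% of the counts on the 3 plates. The highest share was 3.07% in the well of NT157, followed by 2.70% with Rigosertib and 2.69% with BMS_3, and the lowest was 0.944% with SU14813. Each of 210 compounds was compared with all other screening wells of its plate, which understates a response shared by many compounds. Between 31 and 35 members were tested on a plate, and Ctsh, Lipa, Npc1, Rragd, Tfeb and Ulk1 passed the filter on none. Over all compounds, 79 of the pairs of compound and member were called higher and 10 lower. Of all pairs of compound and gene, 0.564% were called higher and 0.458% lower. No member was called with 192 of the 210 compounds, and NT157 and BEZ235 accounted for 35 of the 79 higher calls. Most compounds had 1 well, and the spread was estimated over all wells of the plate.

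NT157, known as a compound directed at the insulin receptor substrates, raised 23 of 35 members tested, where 21.2% of all genes rose, and lowered none, where 18.3% of all genes fell. The median log2 fold change was 1.04 over the members and -0.07 over all genes. Among pump subunits, Atp6v1h was at 133 CPM against a median of 28.5 CPM and a maximum of 100 CPM in the other wells of the plate (2.31 ± 0.37, adjusted p = 2.48e-07). Atp6ap1 was at 609 CPM against a median of 180 and a maximum of 429 CPM (1.85 ± 0.30, adjusted p = 4.8e-07). The well was the highest of the plate for both subunits, and Atp6v1a, Atp6v1c1, Atp6v0e and Atp6v0d1 rose too, by 0.79 to 1.76.

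Among autophagy genes in the NT157 well, Gabarapl1 was at 144 CPM against a median of 31.8 and a maximum of 88.2 CPM (2.27 ± 0.35, adjusted p = 1.27e-07). Gabarapl2 was at 195 CPM against 53.8 and at most 130 CPM (1.97 ± 0.24, adjusted p = 4.76e-11), and Gabarap at 1564 CPM against 637 and at most 1006 CPM (1.45 ± 0.19). All 3 were above every other well of the plate. Map1lc3b, the most used marker of autophagosomes, rose by 0.49 ± 0.21 (adjusted p = 0.0497) and stayed within the range of the other wells, at 416 CPM against at most 480 CPM. Map1lc3a, Wipi1 and Becn1 were not called.

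Among proteases and hydrolases, Ctsd was at 3543 CPM against a median of 1394 CPM (1.54 ± 0.21) and Ctsl at 7127 CPM against 3044 CPM (1.41 ± 0.34). Tpp1, a protease that removes tripeptides, was at 275 CPM against 90.2 CPM (1.68 ± 0.29), and Asah1 at 210 CPM against 73.4 CPM (1.64 ± 0.23). Lamp1 was at 2692 CPM against 1109 CPM (1.39 ± 0.20), Lamp2 at 430 CPM against 207 CPM (1.21 ± 0.20) and Cd63 at 3659 CPM against 1767 CPM (1.21 ± 0.15). The NT157 well exceeded every other well of the plate for all 7 of these genes. Of the 10 members with CACGTG in the promoter window, 9 were called higher with NT157, and of the 19 tested members with a window but no CACGTG 10 were. With BEZ235 these counts were 2 of 10 and 7 of 18, and with BMS_3 2 of 10 and 4 of 19.

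**Figure D3:**
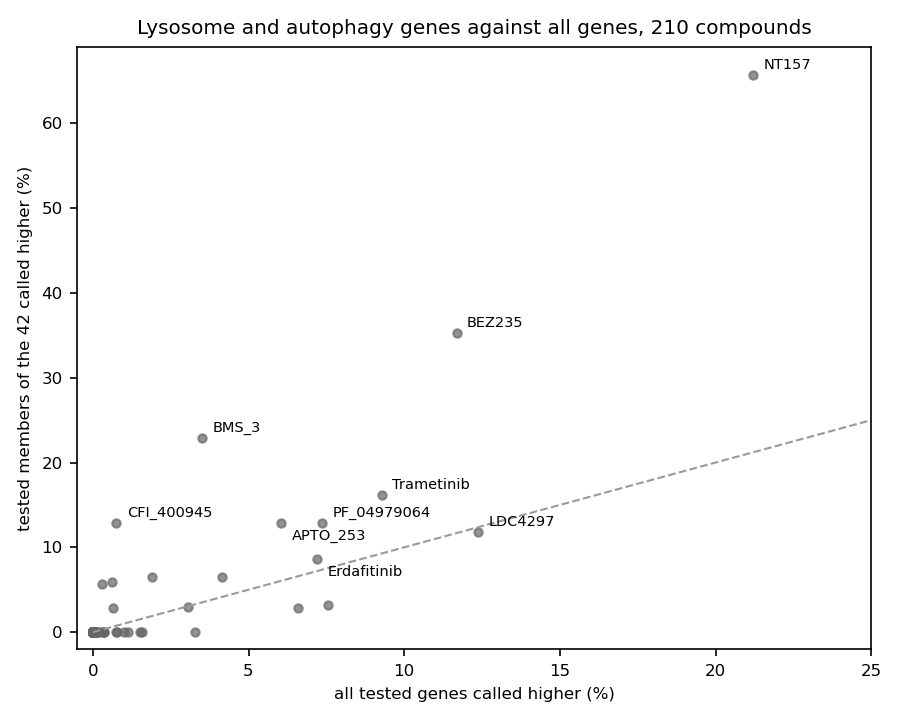
Each point is 1 of 210 compounds, with the percent of all tested genes called higher on the x axis and the percent of tested members called higher on the y axis; the dashed line marks equal percentages. NT157 (21.2% of all genes), BEZ235 (11.7%) and BMS_3 (3.51%) lie above the line by the widest margins, and most compounds lie at or near 0 on both axes.

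BEZ235, an inhibitor of PI3K and mTOR, raised 12 of 34 members, where 11.7% of all genes rose, and lowered none, where 8.36% of all genes fell. Atp6v1b2 was at 132 CPM against a median of 37.0 and a maximum of 91.9 CPM in the other wells of its plate (1.89 ± 0.36, adjusted p = 0.000204). Neu1 was at 129 CPM against 46.9 and at most 104 CPM (1.56 ± 0.34), and Mcoln1 at 107 CPM against 42.8 and at most 84.1 CPM (1.41 ± 0.39, adjusted p = 0.00831). The well was the highest of the plate for these 3. Lamp1, at 2165 CPM against 1114 CPM (1.05 ± 0.21), Hexa, a subunit of beta-hexosaminidase, at 321 CPM against 173 CPM (1.07 ± 0.23), and Gabarap, at 957 CPM against 508 CPM (1.03 ± 0.24), rose as well. PF_04979064, of the same target pair, raised Atp6v1c1, Atp6ap1, Lamp1 and Cd63, 4 of 31, where 7.35% of all genes rose. BEZ235 raised these same 4 genes.

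BMS_3, known as an inhibitor of the LIM kinases, raised 8 of 35 members, where 3.51% of all genes rose. Ctsb was at 5074 CPM against a median of 2010 and a maximum of 3226 CPM (1.19 ± 0.20, adjusted p = 5.28e-05). Psap, the precursor of the saposins that help degrade sphingolipids, was at 146 CPM against 47.2 and at most 106 CPM (1.48 ± 0.34, adjusted p = 0.00651). Ctsk was at 149 CPM against 58.6 and at most 102 CPM (1.23 ± 0.31, adjusted p = 0.0123). The well topped its plate for all 3 of these genes. It also raised Atp6v1h, Atp6v1a, Tpp1, Lamp1 and Npc2, and no autophagy gene.

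CFI_400945, an inhibitor of the centriole kinase PLK4 with 2 wells in different salt forms, raised 4 of 31 members while only 0.756% of all genes rose. Its wells held 3629 and 3729 CPM of Ctsb against a median of 1901 and a maximum of 3365 CPM (0.90 ± 0.16, adjusted p = 0.00106). Gaa was at 343 and 355 CPM against 184 and at most 299 CPM (0.86 ± 0.16, adjusted p = 0.00126). Both wells were above all others of the plate for these genes. Ctsa (0.75 ± 0.18) and Ctsd (0.67 ± 0.18) also rose. The 4 genes encode hydrolases, and no pump subunit or autophagy gene was called.

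APTO_253, known to lower MYC, raised Atp6v1c1, Gabarap, Lamp1 and Cd63, 4 of 31, where 6.04% of all genes rose. LDC4297, an inhibitor of CDK7, raised 4 of 34 members, where 12.4% of all genes rose, and lowered 1, where 15.0% of all genes fell. The fall was that of Ctsk, to 16.0 CPM against a median of 87.6 CPM (fell by 2.69 ± 0.72, adjusted p = 0.00445). Trametinib raised 5 of 31, where 9.27% of all genes rose, and is described with its class below. Avitinib, an inhibitor of EGFR, lowered Gaa (by 2.91 ± 0.67), Hexa (by 1.86 ± 0.59) and Ctsd (by 1.57 ± 0.38), 3 of 35, where 1.83% of all genes fell. Its well held 92437 counts, the fewest tested on its plate. Gaa, at 21.6 CPM against a median of 169.5 CPM, and Hexa, at 43.3 against 161.5 CPM, rested on very few counts there.

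The low-count members had a few rises called when no filter was applied. Rragd had 24 counts of 519263 in the NT157 well and 21 counts of 317771 in the BEZ235 well, against at most 16 and 9 counts in the other wells of their plates (3.58 ± 0.61, adjusted p = 4.32e-06, and 3.67 ± 0.60, adjusted p = 4.64e-05). Ctsh had 33 counts with NT157, where no other well of its plate passed 21 (2.37 ± 0.44). Npc1 rose with BMS_3, to 38 counts (1.93 ± 0.47), and with NT157, to 23 counts (1.67 ± 0.55). In counts not scaled to the well's total, Npc1 reached 36 in another well of that plate. Lipa, lysosomal acid lipase, rose with Trametinib, to 21 counts (2.04 ± 0.47). Tfeb and Ulk1 were not called with any compound by edgeR without the filter.

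A few compounds act on the autophagy kinases themselves. Vps34_PIK_III, which targets the lipid kinase VPS34, and MRT67307, which inhibits TBK1 and ULK1, had no member called by edgeR, with 2 members (5.88%) and 5 members (14.7%) at an unadjusted p under 0.05. Of all genes, 7.09% and 4.41% had such a p. With MRT67307, Map1lc3b was at 399 CPM against a median of 259 CPM (0.52 ± 0.20, adjusted p = 0.946). With Vps34_PIK_III, Ctsd was at 1001 CPM against 1614 CPM (-0.59 ± 0.25, adjusted p = 0.555).

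Compounds were also grouped by main target, from general knowledge of these compounds. Wells of the same compound entered a class fit as separate wells. The mTOR and dual PI3K/mTOR inhibitors (BEZ235, CC_115 in 2 wells, GNE_317, PF_04979064 and PI_103) raised 6 of 37 members, where 13.5% of all genes rose, and lowered none, where 10.8% of all genes fell. An unadjusted p under 0.05 was found for 9 members (24.3%) and for 36.0% of all genes, a lower share among the members. The median log2 fold change was 0.17 over the members and 0.01 over all genes. Mcoln1 was at 107 CPM with BEZ235, 80.9 and 70.2 CPM in the CC_115 wells, 64.2 CPM with GNE_317, 118 CPM with PF_04979064 and 55.4 CPM with PI_103. Each of the 6 wells lay above the median of the other wells of its plate, which was 42.8 to 51.2 CPM, with a log2 fold change of 0.66 ± 0.19 for the class. Atp6ap1 was at 340, 232, 242, 203, 502 and 194 CPM in the same order, against medians of 161 to 180 CPM, and again all 6 wells were above (0.58 ± 0.18).

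Atp6v1b2 was at 132, 28.9, 40.3, 18.7, 49.5 and 17.6 CPM in that order, against medians of 19.8 to 37.0 CPM (0.79 ± 0.23). Atp6v1c1 was at 161, 74.0, 92.1, 50.8, 198 and 75.5 CPM against 59.3 to 67.3 CPM (0.62 ± 0.17). For both subunits BEZ235 or PF_04979064 gave the highest wells, and GNE_317 lay below its plate's median. Lamp1 (0.35 ± 0.11) and Cd63 (0.25 ± 0.08) were also called. Without BEZ235 no member was called, and Atp6v1b2 then missed the filter on low counts. Without PF_04979064 3 members were called, and without CC_115 12.

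**Figure D4:**
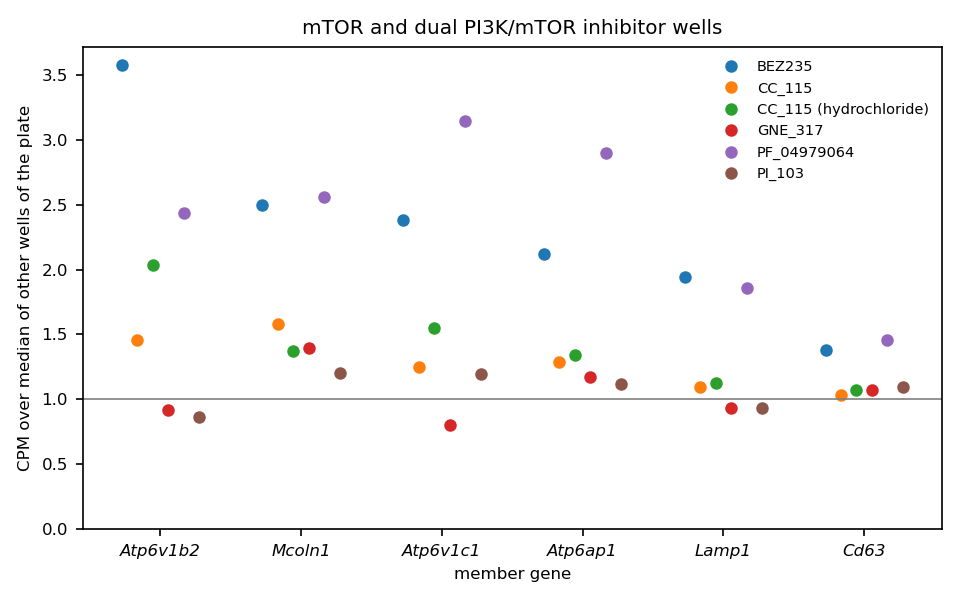
Each point is the CPM of 1 inhibitor well divided by the median of the other wells of its plate, for the 6 genes called in the mTOR class; the line marks 1. BEZ235 and PF_04979064 lie highest for all 6 genes, and GNE_317 and PI_103 lie near or below 1 for Atp6v1b2 and Lamp1.

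In the same class, 3 of 7 other pump subunits rose, led by Atp6ap2 (0.95 ± 0.28) and Atp6v1d (0.92 ± 0.30), and Atp6v1e1 fell. Of 28 other lysosomal genes, 6 rose, led by Aga (1.14 ± 0.25) and Scpep1 (1.01 ± 0.24), and 4 fell, Ppt2 and Arsb the most. Of 24 autophagy genes Sqstm1 (1.25 ± 0.23) and Atg3 rose and Vmp1 fell. Of 14 control genes 3 rose, among them Flcn (0.84 ± 0.22), a regulator of the Rag GTPases, and Lamtor4 fell. Of 14 sorting genes 1 rose and 4 fell. Of 2 macrophage markers tested Cd68, itself a lysosomal membrane protein, rose (0.82 ± 0.25). Of 14 fibroblast markers 1 rose and 2 fell, and the epithelial marker Krt18 rose by 2.02 ± 0.41. Their part in the members' rises was not tested.

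The 15 PI3K and AKT inhibitors without mTOR as a main target had no member called among 37, and 0.00% of all genes were called. Among them, Ipatasertib and GDC_0068 are known as the same molecule and were counted separately. At an unadjusted p under 0.05 there were 6 members (16.2%) and 6.76% of all genes. The members' median log2 fold change was -0.08 and that of all genes -0.02. The difference between this class and the mTOR class was not tested.

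The 3 MEK inhibitors (GDC_0623, Ro_5126766 and Trametinib), which block the kinase upstream of ERK, raised 6 of 31 members, where 14.0% of all genes rose, and lowered 2, where 11.4% fell. At an unadjusted p under 0.05 there were 12 members (38.7%) and 36.3% of all genes. Map1lc3a was at 1127, 551 and 1259 CPM in their wells, against a median of 245 CPM in the other wells (1.99 ± 0.19). Ctsl was at 784, 1101 and 1315 CPM, against 2869 CPM (-1.43 ± 0.24). All 3 wells stood on the same side of the plate's median for both genes, although the Ro_5126766 well held only 45416 counts. Atp6v0e was at 458, 220 and 533 CPM against 208 CPM (1.04 ± 0.15). These 3 calls held without any single compound. Wipi1, at 93.4, 154 and 144 CPM against 68.8 CPM (0.80 ± 0.23), Gabarap, at 937, 705 and 1034 CPM against 566 CPM (0.65 ± 0.17), and Hexa (0.63 ± 0.20), Ctsz (0.47 ± 0.16) and Npc2 (-0.42 ± 0.16) lost their calls without 1 or more of the compounds. Without Trametinib 4 members were called. The highest Wipi1 value, 154 CPM, was that of the Ro_5126766 well and rests on few counts. With wells under 25% of their plate's median total left out, Ctsz and Npc2 were not called.

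The FGFR inhibitors Erdafitinib, FIIN_2 and SU_5402 raised 2 of 35 members, where 8.93% of all genes rose, and lowered 1, where 6.72% fell. At an unadjusted p under 0.05 there were 7 members (20.0%) and 29.1% of all genes. Map1lc3a was at 1303, 1046 and 303 CPM against a median of 278 CPM (1.53 ± 0.18), and Gabarapl1 at 88.2, 77.8 and 33.4 CPM against 31.2 CPM (0.87 ± 0.28). Ctsl was at 853, 816 and 2485 CPM against 3091 CPM (-1.20 ± 0.26). The SU_5402 well lay near the median for all 3 genes, and the other two lay far from it. Without Erdafitinib or without FIIN_2 only Map1lc3a was called, and without SU_5402 6 members were.

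Beside these, of other lysosomal genes 4 of 13 rose with the MEK class, with Smpd1 (1.81 ± 0.24) and Fuca1 (1.33 ± 0.23) first, and 0 fell. With the FGFR class 6 of 24 rose, with Smpd1 (1.36 ± 0.21) and Acp2 (1.11 ± 0.20) first, and 2 fell. Fibroblast markers moved with both classes: 6 of 10 rose and 2 fell with MEK inhibitors, and 7 of 13 rose and 2 fell with FGFR inhibitors. Col1a1 rose by 3.73 ± 0.30 and 3.57 ± 0.25 on the log2 scale, and Vim fell. The part of this shift in the changes of Map1lc3a and Ctsl was not tested.

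Low Ctsl and high Map1lc3a met in the same wells. Of 217 compound wells, 11 had Ctsl under 0.5 times the median of their plate, 10 had Map1lc3a over 2 times the median, and 8 had both. These 8 were the wells of GDC_0623, Ro_5126766, Trametinib, Erdafitinib, FIIN_2, the RAF inhibitors CCT196969 and LY3009120, and Cediranib, of the VEGFR class. Not all RAF inhibitors shared this. Dabrafenib had 1.14 times the plate median of Ctsl and 0.806 times that of Map1lc3a, and BRAF_inhibitor 0.944 and 0.867 times. These limits and this pair of genes were chosen after their values were seen. By single-compound tests, Ctsl fell with 5 compounds, CCT196969 (by 2.18 ± 0.45), LY3009120 (by 2.15 ± 0.47), FIIN_2 (by 2.07 ± 0.50), Erdafitinib (by 1.92 ± 0.50) and GDC_0623 (by 1.90 ± 0.45), and rose with NT157 only. Map1lc3a rose with the same 5 and with Trametinib, where the rise was 2.21 ± 0.37 (adjusted p = 6.13e-06). Media showed the same opposed order, with Ctsl lowest and Map1lc3a highest in MEF and basal wells.

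**Figure D5:**
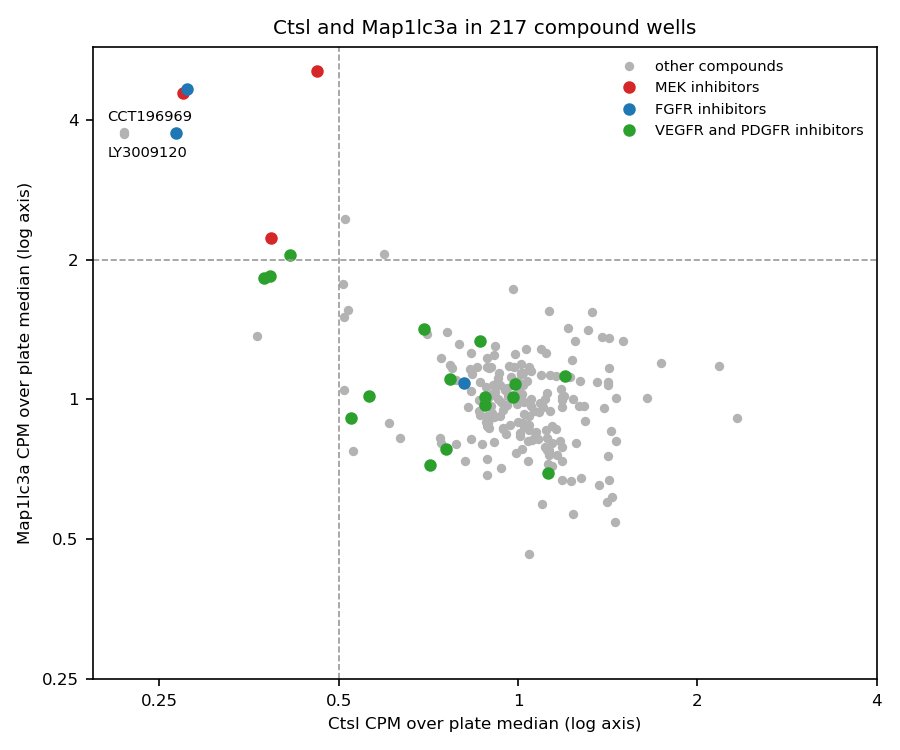
Each point is 1 of 217 compound wells, with Ctsl CPM over the median of its plate on the x axis and Map1lc3a CPM over the median on the y axis, both on log axes; dashed lines mark 0.5 and 2. The 8 wells at the upper left are 3 MEK, 2 FGFR, 1 VEGFR and 2 RAF inhibitor wells.

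The VEGFR and PDGFR inhibitors (14 compounds in 16 wells) lowered Ctsl (-0.39 ± 0.11), Ctsd (-0.27 ± 0.08) and Npc2 (-0.21 ± 0.06), 3 of 37 members, where 1.89% of all genes fell. Ctsl ran from 1146 CPM with BIBF_1120 to 3666 CPM with Apatinib, against plate medians of 2919 to 3087 CPM. Ctsd lay below the plate median in 14 of 16 wells, from 839 CPM with SU14813 to 1504 CPM with JI_101. At an unadjusted p under 0.05 there were 15 members (40.5%) and 22.4% of all genes. The members' median log2 fold change was -0.17 and that of all genes -0.01. The macrophage marker Lyz2 fell in these wells too (by 1.34 ± 0.35), and its part was not tested. All 3 calls were lost with no filter on low counts.

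The other classes had no member called by edgeR. For the 3 CDK4/6 inhibitors, 0.00% of all genes were called, and 0 members and 2.47% of all genes had an unadjusted p under 0.05. For the 2 inhibitors of CDK19 and of CDK8, the kinase in the study's title, 0.159% of all genes were called, and 0 members and 5.67% of all genes had such a p. For the 6 CDK1/2/7/9 inhibitors 1.97% were called, and 2 members (5.41%) and 16.8% of all genes had such a p. For the 8 SRC and ABL inhibitors 0.00% were called, and 1 member (2.70%) and 3.26% of all genes had such a p. For the 5 PLK1 and polo-box inhibitors 0.116% were called, and 5 members (16.1%) and 13.9% of all genes had such a p.

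Seen by member, the genes called higher with the most compounds were Lamp1 and Map1lc3a, with 6 each, followed by Ctsb, Ctsz, Cd63, Atp6v1c1 and Gabarap, with 4 each. Ctsl was called lower with 5 compounds and Ctsk with 2, LDC4297 and FIIN_2 (by 1.71 ± 0.59). Glb1, Gusb, Scarb2, Tfe3 and Becn1 were not called with any compound, though tested with all 210. The largest rise of Wipi1 was with Trametinib (1.00 ± 0.35), that of Gabarapl1 with NT157, that of Neu1 and of Grn with NVP_BSK805_2HCl, a JAK2 inhibitor (1.58 ± 0.29 and 0.88 ± 0.22), and that of Npc2 with BMS_3 (0.66 ± 0.19).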

How the data were processed

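The deposited table holds whole-number counts per gene and well, which the authors did not scale, as the values show. The submitters' processing notes name STAR as a tool and mm10 as the build, and nothing in the labels says how genes were counted, whether strand was used or whether molecular identifiers were merged. Of 274 columns, 253 were mapped to a well of a plate by the deposited barcode lists, and 21 per-well columns were not used. Of these 21, 4 repeated another column exactly. A compound well whose column name resembled a chromosome position was also left out, although it held counts like the others. Gene positions came from GENCODE vM21 on mm10. Media shared 1 fit of 30 wells and 6985 genes in edgeR 4.0.16 (R 4.3.3; TMM, filterByExpr with a minimum count of 10, quasi-likelihood test). Each compound and class was compared with all other screening wells of its plates (222 wells, with a plate term for classes). Fits were also run on simulated counts with a fixed spread and a single altered medium or well. On the real plates nearly every well held a different compound, so these runs cannot vouch for the calls. Alternatives were DESeq2 1.42.0, other scalings, no filter, single wells or compounds left out and a replicate block. The members and lists were chosen with earlier results of these data known. Members named were those called, up to 8 each way in a medium comparison and 5 in a class; compounds named were the 6 with most members called each way (with ties, at least 3), and for chosen members the compound of largest rise and fall; of other lists, the 2 largest changes each way.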

Additional observations from a re-analysis of the deposited data

Results flagged for a closer look

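In groups of 4 or 5 medium wells, the well farthest from the others was set apart by more than Dixon's 95% limit in 7 of 135 groups of the 27 genes examined, where chance gives about 1 in 20. In bC8FAE these were a Gusb well at 92.2 CPM, a Tpp1 well at 218 CPM and a Map1lc3b well at 292 CPM. In bCLFAE they were a Tpp1 well at 75.6 CPM and an Asah1 well at 67.8 CPM, and in bC6FAE[10] an Atp6v1c1 well at 57.6 CPM and a Wipi1 well at 55.7 CPM. Wells named nocell, which no comparison used, also held counts of the 42 genes: 128 of 4280 counts (2.99%) in nocell 2 and 818 of 25308 counts (3.23%) in nocell 3.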

How the results depend on the processing

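Of 227 alternative counts of called members, 200 stayed within 1.5 times the value reported. Of 1024 alternative values of single members, 841 kept their direction and side of the threshold, 183 kept the direction and lost the call, and 0 reversed. With single wells or compounds left out, 122 of 512 lost the call.

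With no filter on low counts, 11 members were called between bCFAE and basal, 2 in bC6FAE[2], 5 with MEK inhibitors and 0 with VEGFR and PDGFR inhibitors; more genes are tested there. With the 2 media fitted alone, 1 was called in bC8FAE against bCFAE and 10 in bCSFAE. Between basal and MEF, DESeq2 called 2 and edgeR without wells MEF 3 and bC8FAE 4 called 1. Leaving out single wells gave 11 to 15 calls between bCFAE and basal (11 without basal 1), 15 to 18 between bC8FAE and MEF, and 24 to 28 for any difference. Against bCFAE it gave 1 to 6 in bC8FAE, 2 to 5 in bC6FAE[2] and in bCSFAE, 4 to 7 in bC6FAE[10] and 2 to 3 in bCLFAE. Leaving out single compounds gave 0 to 12 with mTOR, 4 to 8 with MEK and 1 to 6 with FGFR inhibitors. The cause was not tested for these changes.

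Well numbers did not pair the wells (median correlation of deviations 0.0079 over 94 same-numbered pairs and -0.00247 over 298 others). Nothing in the labels pairs them either. A fit with the replicate block changed no count of called members by over 1.5 times: it called 16 between bC8FAE and MEF, 17 between bCFAE and basal and 27 for any difference. Counts under about 10 per well left Npc1, Rragd, Tfeb and Ulk1 untested in the media.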
